A study of Mus musculus with 2 samples.

Results

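The forkhead genes encode transcription factors that bind DNA through a shared winged-helix domain. They were taken here as all symbols of the form Fox, a letter from a to s and a digit, without Foxn1, Foxd3 and opposite-strand transcripts. This gave 42 genes of 19 lettered subfamilies, out of 25791 symbols listed in each library. Of these 42, 17 averaged 1 FPKM or more, a fragment count scaled to transcript length and library size.

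RNA was sequenced from fetal thymic epithelial cells at 15 days post coitum, sorted as EpCAM-positive, CD45-negative and PDGFRa-negative. The library titled humanCD3eTg came from mice of a C57BL/6J x CBA/J background, with "presence of thymocytes" as its treatment label. The library titled B6J came from C57BL/6 mice, with "absence of thymocytes" as its label. The title humanCD3eTg names a transgene of human CD3E, and mice with many copies of it are generally known to lack T cells, the reverse of what the treatment labels state. The thymocyte transcripts below also go against those labels, so each library is called by its title. There was 1 library per group, strain and transgene differ together, and the labels do not say how many fetuses were pooled. No test was possible, and every difference below describes these libraries only.

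Forkhead factors are named for a fly gene needed for the gut ends, and the family is known for setting cell identity in many epithelia. FOXA factors open closed chromatin in endoderm, FOXO factors carry growth factor and insulin signals, FOXM1 drives mitosis, FOXP and FOXK factors are mainly repressors, and FOXC, FOXD, FOXF and FOXL factors are known mostly from mesenchyme. In the thymus the family is best known for Foxn1, which directs epithelial differentiation. Foxn1 is no member here and stood at 43.7 FPKM in humanCD3eTg and 91.1 FPKM in B6J.

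The third helix of the forkhead domain lies in the DNA groove, and its codons are shown to let a reader see how close the genes are where they read DNA. The stretches of 30 bases below come from GENCODE M21 coding transcripts, 5′ to 3′, for 5 of the genes described in full, and capitals mark bases unlike Foxo3.
Foxp4: tggaagaaTGccGtGcgCcacaacctCAGc
Foxo3: tggaagaactccatccggcacaacctgtcc
Foxm1: tggaagaactcTatTcgTcacaacctTtcT
Foxc1: tggCagaacAGcatAcggcacaacctCtcG
Foxs1: tggCaAaacAGcatccgCcaTaacctgtcT

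The segment was sought with an amino acid pattern that fixes several of its positions, and was found in 38 of the 42 members. The likeness of the segments is therefore partly set by the search. They carried 36 different base sequences and 9 different translations. Pairs of members differed at a median of 7 of the 30 bases and at most at 15. Foxd4 and Foxl1 were identical there, as were Foxe1 and Foxe3. Over whole transcripts the genes were well separated: no stretch of 50 bases of Foxj1, Foxa1, Foxs1, Foxo3, Foxk2 or Foxp4 occurred in a transcript of another gene. The largest share was that of Foxq1, with 65.7% of its stretches also found in other annotated genes, chiefly A530084C06Rik, a gene model on the opposite strand. Use of strand is not given in the sources used here, so reads of that pair cannot be told apart.

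The promoters of 26 members were found in the RefSeq table. Foxp4 had the highest level of the 42 members, which leave out Foxn1. Foxa1 had the largest positive ratio, and Foxc1 the largest negative ratio, among genes of at least 1 FPKM with an entry. Their 250 bases before the start are shown, 5′ to 3′. Capitals mark matches, on either strand, to the forkhead core GTAAACA, the CCAAT box CCAAT, the GC box GGGCGG, the CHR element TTTGAA and the TATA box TATAAA. Foxj1 and Foxs1 have no entry.
Foxp4 (GRCm38.p6, chr17:47924633-47924882, minus strand): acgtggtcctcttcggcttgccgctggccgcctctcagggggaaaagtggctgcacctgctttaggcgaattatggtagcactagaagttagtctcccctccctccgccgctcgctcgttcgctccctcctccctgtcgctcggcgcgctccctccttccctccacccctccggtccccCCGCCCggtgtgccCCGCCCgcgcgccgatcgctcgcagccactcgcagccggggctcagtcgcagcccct
Foxa1 (GRCm38.p6, chr12:57546112-57546361, minus strand): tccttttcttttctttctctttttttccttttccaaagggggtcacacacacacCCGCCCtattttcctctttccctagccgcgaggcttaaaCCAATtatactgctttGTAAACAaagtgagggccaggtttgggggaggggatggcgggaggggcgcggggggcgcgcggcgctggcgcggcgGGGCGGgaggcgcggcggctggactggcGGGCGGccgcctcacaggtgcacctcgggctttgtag
Foxc1 (GRCm38.p6, chr13:31806396-31806645, plus strand): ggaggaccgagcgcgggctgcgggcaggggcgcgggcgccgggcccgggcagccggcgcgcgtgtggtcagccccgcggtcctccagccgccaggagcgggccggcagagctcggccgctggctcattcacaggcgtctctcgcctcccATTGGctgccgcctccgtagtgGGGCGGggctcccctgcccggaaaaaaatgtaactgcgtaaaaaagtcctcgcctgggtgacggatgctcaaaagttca

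Foxa1 was the only 1 of the 26 members with the forkhead core, which began 141 bases before its start. This core was present in 3.54% of all 27025 genes with a promoter. GC boxes stood in 20 of the 26 members, against 35.4% of all genes. CCAAT boxes stood in 13, against 37.5% of all genes. The CHR element and the TATA box stood in 3 members each, against 18.3% and 14.3% of all genes. The 10 members of at least 1 FPKM with an entry had a median of 28 CG pairs in these 250 bases. The 16 with lower levels had a median of 12.5, and all genes had a median of 6. These matches are letters in a window and say nothing of binding.

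Both libraries carried the thymic epithelial markers that fit the sort. Epcam, the surface protein used in it, stood at 231.4 FPKM in humanCD3eTg and 173.5 FPKM in B6J. The keratin gene Krt8 stood at 2103 FPKM in humanCD3eTg and 2183 FPKM in B6J. The thymoproteasome gene Psmb11 stood at 51.8 FPKM in humanCD3eTg and 65.6 FPKM in B6J, and the protease gene Prss16 at 992.4 FPKM in humanCD3eTg and 1409 FPKM in B6J. Krt5 stood at 955.5 FPKM in humanCD3eTg and 280.2 FPKM in B6J. Of the 12 thymic epithelial markers on the list 8 were lower in humanCD3eTg and 4 higher. They summed to 8502 FPKM in humanCD3eTg and 8399 FPKM in B6J, with none at 0, and keratin genes made up most of these sums. Pdgfra was low in both, at 0.348 FPKM in humanCD3eTg and 0.676 FPKM in B6J. Thymocyte, leukocyte, endothelial, and neural crest and pigment markers differed more as groups than the epithelial markers did. All 14 thymocyte genes were lower in humanCD3eTg, with summed levels of 10.8 FPKM in humanCD3eTg and 197.8 FPKM in B6J, and Cd3g, Cd3d and Rag2 were listed at 0 there. All 14 endothelial genes were lower, summing to 18.8 FPKM in humanCD3eTg and 66.6 FPKM in B6J, with none at 0. Of 12 leukocyte genes 10 were lower, summing to 15.6 FPKM in humanCD3eTg and 105.8 FPKM in B6J. Ptprc, which encodes CD45, stood at 0.358 FPKM in humanCD3eTg and 4.18 FPKM in B6J. Of 16 mesenchymal and pericyte genes 12 were lower, yet their sums were 296.2 FPKM in humanCD3eTg and 270.2 FPKM in B6J. Of 13 neural crest and pigment genes 2 were lower, with sums of 188.5 FPKM in humanCD3eTg and 30.6 FPKM in B6J. Tyrp1 was listed at 0 in both libraries, and Mlana and Gpr143 in B6J. Of 12 thyroid and parathyroid genes 7 were lower, with sums of 1192 FPKM in humanCD3eTg and 959.6 FPKM in B6J. In sorted bulk RNA, fewer cells of a type and less RNA per cell cannot be told apart.

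Levels were uneven across the 42 members, and those of at least 1 FPKM kept nearly the same order in both libraries. The 42 genes summed to 202.1 FPKM in humanCD3eTg and 227.2 FPKM in B6J. The FOXP subfamily held 26.1% of that sum in humanCD3eTg and 26.6% in B6J, and the FOXO subfamily 20.5% in humanCD3eTg and 21.4% in B6J. Across the 17 genes of at least 1 FPKM the rank correlation of the libraries was 0.92 (Spearman, across genes, a description). The genes of lowest level formed the larger group: 25 members, or 59.5%, had a mean below 1 FPKM, against 47.7% of all genes.

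**Figure D1:**
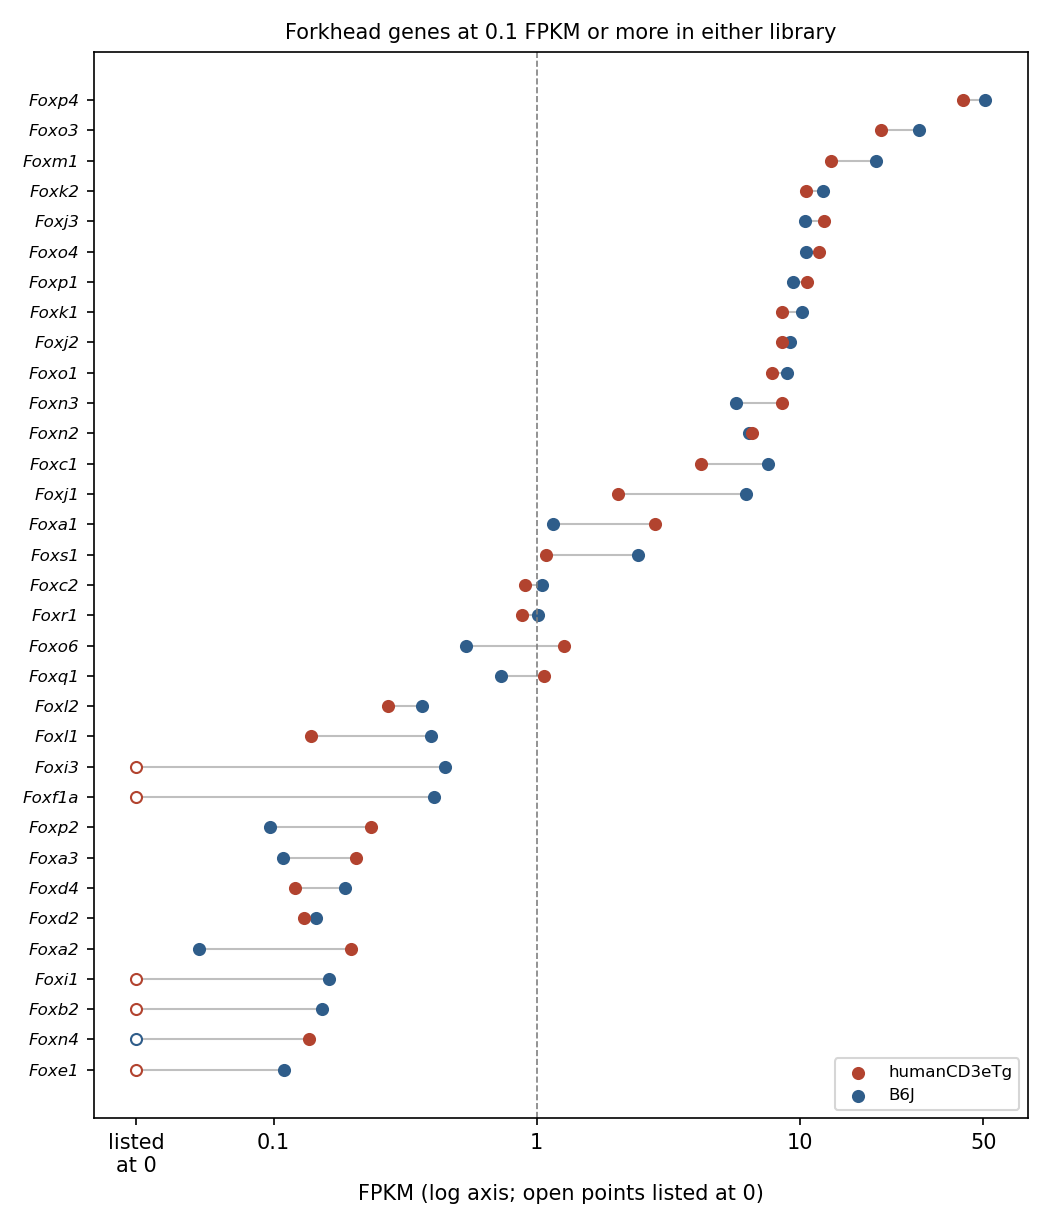
FPKM on a log axis of forkhead genes that reach 0.1 FPKM in either library, with 1 point per library and open points for values listed at 0. Foxp4 is highest in both libraries. Foxa2, Foxj1, Foxl1, Foxa1, Foxp2, Foxo6 and Foxs1 show wide gaps between their points with neither library at 0. Of these Foxa2, Foxl1 and Foxp2 lie below 0.5 FPKM in both libraries.

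A difference was expressed as the log2 ratio of FPKM + 1, humanCD3eTg over B6J, so that a value of at least 1 in size is a 2-fold difference on that scale. Of the 17 genes of at least 1 FPKM, 1 passed that limit on the lower side in humanCD3eTg and 0 on the higher side. Over all 13493 genes of that level, 4.47% passed it on the lower side and 2.1% on the higher side. With quantile normalization these shares were 3.73% lower and 2.75% higher. The forkhead count thus lies near the background. In all, 10 of the 17 were lower by any amount (58.8%, against 55.4% of all genes) and 7 higher, and the median log2 ratio was -0.17, beside -0.05 over all genes. Of the alternatives, only median centring, quantile normalization and rescaling could change a direction, and under these each of the 17 kept its own. Within 0.5 on the log2 scale lay 11 of the 17, or 64.7%, against 78.5% of all genes.

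**Figure D2:**
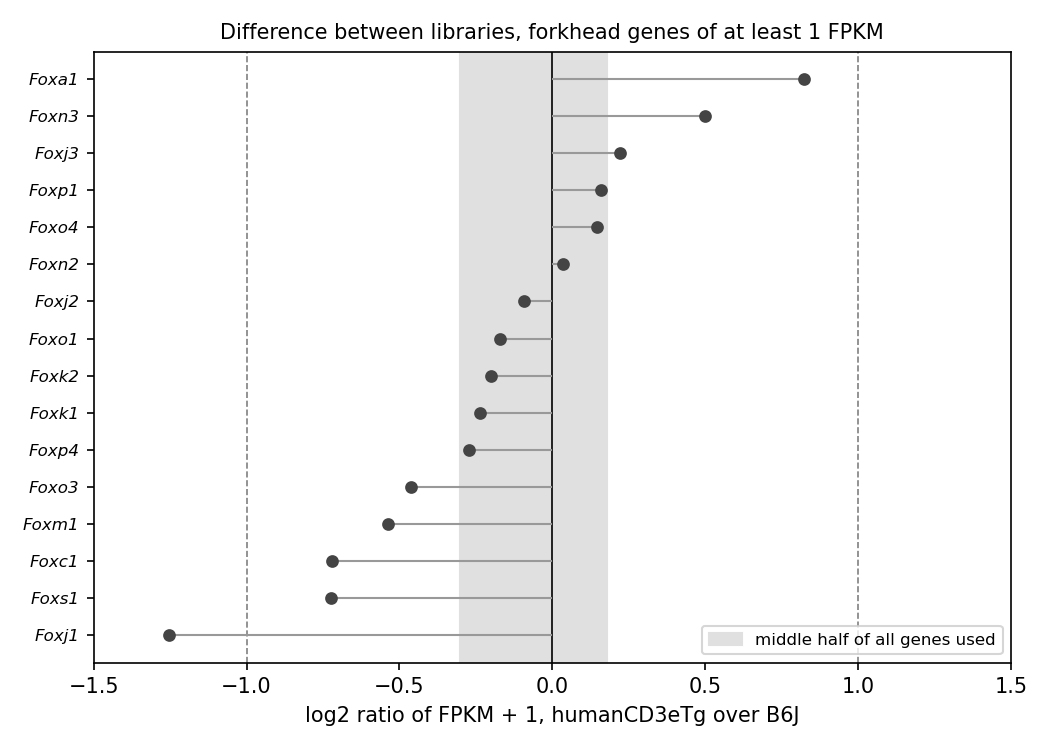
Log2 ratio of FPKM + 1, humanCD3eTg over B6J, for forkhead genes that average 1 FPKM or more. The grey band spans the quartiles of all genes used, -0.30 to 0.18, dashed lines mark 2-fold, and Foxj1 at -1.25 is the only gene beyond them, with Foxa1 highest at 0.82.

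Foxj1, the master regulator of motile cilia, stood at 2.05 FPKM in humanCD3eTg and 6.27 FPKM in B6J. It was thus 3.06-fold lower in FPKM in humanCD3eTg (log2 ratio of FPKM + 1 of -1.25). In mice Foxj1 is also known to restrain NF-kB in T cells. Thymocyte, leukocyte and endothelial markers were lower in the same library, and their part in the Foxj1 difference was not tested. Rnf157, which lies 954 bases away on the same strand, stood at 3.03 FPKM in humanCD3eTg and 4.32 FPKM in B6J. From its 1 coding transcript of 2623 bases and the size of 1 fragment in each library, Foxj1 rested on about 78 fragments in humanCD3eTg and 303 in B6J. The 95% interval for counting error runs from 2.39-fold to 4.0-fold lower in humanCD3eTg. Such intervals hold no spread between mice or sorts.

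The list of motile cilium genes holds targets of FOXJ1 and regulators that act before or beside it. Of 25 such genes found, 17 were lower in FPKM in humanCD3eTg, and 11 had a mean of at least 1 FPKM. Of these 5 were higher and 6 lower, 1 at least 2-fold each way, with a median log2 ratio of -0.28. That median was 0.0027 with quantile normalization and -0.04 at a mean of at least 5 FPKM, and with a pseudocount of 0.1 the genes at least 2-fold lower were 3. Rsph1, which encodes a radial spoke protein, stood at 2.43 FPKM in humanCD3eTg and 0.676 FPKM in B6J (1.03). Dnahc9, an axonemal dynein gene, stood at 1.84 FPKM in humanCD3eTg and 3.94 FPKM in B6J (-0.80). Both therefore carry ciliary products but lie on opposite sides. Ccno, which acts in centriole amplification, stood at 7.43 FPKM in humanCD3eTg and 14.6 FPKM in B6J (-0.89). The largest difference on the list was that of Myb, at 1.96 FPKM in humanCD3eTg and 9.66 FPKM in B6J (-1.85). Myb acts before Foxj1 in multiciliated cells, and thymocytes also express it strongly.

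Foxa1 was the forkhead gene with the highest ratio. It encodes a pioneer factor of endoderm and its derived epithelia, and stood at 2.81 FPKM in humanCD3eTg and 1.15 FPKM in B6J. This was 2.43-fold higher in FPKM (log2 ratio of FPKM + 1 of 0.82). About 133 fragments in humanCD3eTg and 69 in B6J lay behind these values, with a counting interval from 1.81-fold to 3.30-fold higher. The other FOXA genes lay on the same side at far lower levels. Foxa2, of foregut, liver and notochord, stood at 0.197 FPKM in humanCD3eTg and 0.0519 FPKM in B6J. Foxa3, known from liver and gut, stood at 0.206 FPKM in humanCD3eTg and 0.109 FPKM in B6J, on about 6 fragments in humanCD3eTg and 4 in B6J. The interval of Foxa3, from 0.449 to 9.12 for humanCD3eTg over B6J, includes 1.

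Endoderm genes that FOXA factors accompany were mostly at or near 0. Of 28 such genes found, 6 had a mean of at least 1 FPKM, with 3 higher, 3 lower and a median log2 ratio of 0.09. In humanCD3eTg 13 of the 28 were listed at 0, and in B6J 6. Cldn4, a tight junction gene, stood at 262.1 FPKM in humanCD3eTg and 143.5 FPKM in B6J (0.86). Gata6, a zinc finger factor of endoderm, stood at 2.45 FPKM in humanCD3eTg and 1.4 FPKM in B6J (0.52). Klf5, a factor of gut and skin epithelium, stood at 41.9 FPKM in humanCD3eTg and 34.0 FPKM in B6J (0.29).

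Among forkhead genes known from mesenchyme and vessel walls, Foxc1 and Foxs1 were lower in humanCD3eTg, both within 2-fold on FPKM + 1, and the others were near or below 1 FPKM in both libraries. Foxc1, which acts in mesenchyme of the eye and skull and in vessels, stood at 4.21 FPKM in humanCD3eTg and 7.58 FPKM in B6J (log2 ratio -0.72). This was 1.80-fold lower in FPKM, on about 377 fragments in humanCD3eTg and 856 in B6J, with a counting interval from 1.59-fold to 2.04-fold lower. Gmds, its neighbour on the opposite strand, stood at 7.25 FPKM in humanCD3eTg and 9.46 FPKM in B6J. Foxs1, known from pericytes and sensory ganglia, stood at 1.08 FPKM in humanCD3eTg and 2.44 FPKM in B6J (-0.72). This was 2.25-fold lower in FPKM, on about 19 fragments in humanCD3eTg and 54 in B6J, with an interval from 1.31-fold to 4.02-fold lower. Of the 14 measured mesenchymal and pericyte genes 10 were lower and 4 higher. The pericyte genes Pdgfrb and Rgs5 lay on the lower side. Pdgfrb stood at 3.19 FPKM in humanCD3eTg and 6.05 FPKM in B6J, and Rgs5 at 7.62 FPKM in humanCD3eTg and 13.5 FPKM in B6J. Cspg4 differed less, at 1.78 FPKM in humanCD3eTg and 2.16 FPKM in B6J (-0.19). Col1a1 and Acta2 of the same list lay on the other side. Col1a1 stood at 66.0 FPKM in humanCD3eTg and 35.5 FPKM in B6J, and Acta2 at 14.3 FPKM in humanCD3eTg and 11.8 FPKM in B6J. Their part, and that of the endothelial markers, in the Foxc1 and Foxs1 differences was not tested.

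Foxc2, which acts in lymphatic valves and overlaps the gene model Gm20388 on its strand, stood at 0.901 FPKM in humanCD3eTg and 1.05 FPKM in B6J. Its interval, from 0.545 to 1.33 for humanCD3eTg over B6J, includes 1. Foxl1, a gene of gut mesenchyme that lies 9045 bases from Foxc2, stood at 0.139 FPKM in humanCD3eTg and 0.396 FPKM in B6J, on about 5 fragments in humanCD3eTg and 20 in B6J. Foxl1 was thus the lower of these neighbours in both libraries. Foxf1a, of the mesenchyme around gut and lung, was listed at 0 in humanCD3eTg and at 0.407 FPKM in B6J, about 18 fragments. In humanCD3eTg 3 fragments of Foxf1a would give 0.086 FPKM. Both Foxl1 and Foxf1a also overlap Gm20388 on the same strand. Foxf2 and Foxd1, known from gut and kidney stroma, were listed at 0 in both. Foxd2 stood at 0.131 FPKM in humanCD3eTg and 0.145 FPKM in B6J, and Foxd4 at 0.12 FPKM in humanCD3eTg and 0.187 FPKM in B6J.

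Of 16 measured partners of these genes in mesenchyme and hedgehog signalling, 13 were lower and 3 higher (median log2 ratio -0.26). This list shares genes with the mesenchymal markers and with the pharyngeal pouch list below, so these counts are not independent. Beyond 2-fold lay 2 on the lower and 1 on the higher side. Hhip, which binds and limits hedgehog ligands, stood at 0.583 FPKM in humanCD3eTg and 3.88 FPKM in B6J (-1.62). Tcf21, a mesenchymal helix-loop-helix factor gene, stood at 0.548 FPKM in humanCD3eTg and 2.70 FPKM in B6J (-1.26). Bmp4, a growth factor gene of early thymus development, lay on the other side, at 8.75 FPKM in humanCD3eTg and 2.06 FPKM in B6J (1.67). Sfrp1, a secreted inhibitor of WNT signals, stood at 5.57 FPKM in humanCD3eTg and 11.1 FPKM in B6J (-0.88).

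The FOXO genes, whose proteins leave the nucleus when AKT phosphorylates them, did not share a direction. Foxo3 stood at 20.4 FPKM in humanCD3eTg and 28.5 FPKM in B6J (log2 ratio -0.46) and was the highest of them in both libraries. Foxo1 stood at 7.87 FPKM in humanCD3eTg and 8.98 FPKM in B6J (-0.17), and Foxo4 at 11.8 FPKM in humanCD3eTg and 10.6 FPKM in B6J (0.15). Foxo1 was 1.14-fold lower in FPKM, with a counting interval from 1.05-fold to 1.24-fold lower on about 1056 fragments in humanCD3eTg and 1522 in B6J. Foxo6, known mainly from brain, stood at 1.28 FPKM in humanCD3eTg and 0.537 FPKM in B6J, 2.37-fold higher in FPKM. Its counting interval, on about 49 fragments in humanCD3eTg and 26 in B6J, runs from 1.45-fold to 3.99-fold higher, and its mean lies just below 1 FPKM.

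Genes that control FOXO proteins differed little. Of 28 regulators, all of at least 1 FPKM, 14 were higher and 14 lower, 0 beyond 2-fold either way, with a median log2 ratio of 0.01. Igf1r, the receptor of insulin-like growth factors, stood at 13.1 FPKM in humanCD3eTg and 19.4 FPKM in B6J (-0.53). Rictor, a subunit of the kinase complex that completes AKT activation, stood at 9.63 FPKM in humanCD3eTg and 7.08 FPKM in B6J (0.40). Of 35 measured FOXO target genes 24 were higher and 11 lower, with a median of 0.08 and 1 gene beyond 2-fold on the higher and 2 on the lower side. Fbxo32, a ubiquitin ligase gene of muscle wasting, stood at 6.16 FPKM in humanCD3eTg and 1.94 FPKM in B6J (1.28). S1pr1, a homing gene of lymphocytes that endothelium also uses, stood at 1.36 FPKM in humanCD3eTg and 5.09 FPKM in B6J (-1.37). Pik3ip1, an inhibitor of PI3K, stood at 5.64 FPKM in humanCD3eTg and 11.8 FPKM in B6J (-0.95). Thymocyte and leukocyte markers were lower in humanCD3eTg beside S1pr1 and Pik3ip1, and their part was not tested.

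Foxm1, which activates genes of G2 and mitosis, stood at 13.2 FPKM in humanCD3eTg and 19.6 FPKM in B6J (log2 ratio -0.54), 1.49-fold lower in FPKM. Of 29 target and partner genes, all of at least 1 FPKM, 20 were higher and 9 lower, 0 beyond 2-fold either way, with a median of 0.08. Most of them thus lay on the other side from Foxm1, by small amounts. The kinase gene Nek2 stood at 14.1 FPKM in humanCD3eTg and 9.61 FPKM in B6J (0.50). The spindle gene Prc1 stood at 29.6 FPKM in humanCD3eTg and 21.7 FPKM in B6J (0.43), and the cyclin gene Ccnb1 at 34.4 FPKM in humanCD3eTg and 27.2 FPKM in B6J (0.33). Several transcripts are annotated for Foxm1, so its fragments were not estimated.

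The FOXP and FOXK repressors lay close together in the libraries. Foxp4, of foregut and lung epithelium in mice, stood at 41.9 FPKM in humanCD3eTg and 50.7 FPKM in B6J (log2 ratio -0.27), and Foxp1, of many epithelia and lymphocytes, at 10.7 FPKM in humanCD3eTg and 9.44 FPKM in B6J (0.16). Foxk1 stood at 8.54 FPKM in humanCD3eTg and 10.2 FPKM in B6J (-0.24), and Foxk2 at 10.6 FPKM in humanCD3eTg and 12.3 FPKM in B6J (-0.20). Both FOXK genes are known to restrain autophagy genes in muscle. Foxk2 was 1.16-fold lower in FPKM, with a counting interval from 1.06-fold to 1.27-fold lower. Foxp2, known from brain and lung, stood at 0.234 FPKM in humanCD3eTg and 0.0972 FPKM in B6J. Foxp3, which defines regulatory T cells, was listed at 0 in humanCD3eTg and at 0.0789 FPKM in B6J. It overlaps Ccdc22 on the opposite strand, which stood at 18.8 FPKM in humanCD3eTg and 18.3 FPKM in B6J, and 12.9% of the stretches of 50 bases of Foxp3 also occur in Ccdc22 or Ppp1r3f, so that low value is uncertain. Of 27 measured co-repressors and partners listed with these factors, 12 were higher and 15 lower, 0 beyond 2-fold, with a median of -0.06. Ctbp2, a co-repressor gene, stood at 24.3 FPKM in humanCD3eTg and 19.4 FPKM in B6J (0.31), and Kdm5b, a histone demethylase gene, at 28.6 FPKM in humanCD3eTg and 22.6 FPKM in B6J (0.33).

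Genes of the pharyngeal pouch, from which the thymus forms, differed little where they averaged 1 FPKM or more. Of 15 measured, 10 were higher and 5 lower, 0 beyond 2-fold, with a median of 0.06. With no filter, over the 23 found, 1 was at least 2-fold lower. That gene, Nkx2-6, was listed at 0 in humanCD3eTg and at 1.63 FPKM in B6J (-1.40). Pth, the parathyroid hormone gene of the same pouch, stood at 875.1 FPKM in humanCD3eTg and 679.1 FPKM in B6J (0.37). Trp63, which maintains epithelial progenitors, stood at 47.8 FPKM in humanCD3eTg and 60.5 FPKM in B6J (-0.33). Foxi3, which is needed for the pharyngeal arches in mice, was listed at 0 in humanCD3eTg and at 0.449 FPKM in B6J.

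Among the remaining genes of at least 1 FPKM were Foxn2, Foxn3, Foxj2 and Foxj3. Foxn3, which represses transcription and was named for a checkpoint role in yeast, stood at 8.54 FPKM in humanCD3eTg and 5.75 FPKM in B6J (log2 ratio 0.50), 1.49-fold higher in FPKM. Its near relative Foxn2 stood at 6.62 FPKM in humanCD3eTg and 6.43 FPKM in B6J (0.04). Foxj3, which acts in muscle and germ cells of mice, stood at 12.3 FPKM in humanCD3eTg and 10.4 FPKM in B6J (0.22). Its relative Foxj2 stood at 8.56 FPKM in humanCD3eTg and 9.20 FPKM in B6J (-0.09). The FOXJ subfamily thus held about the same share of the forkhead sum, 11.4% in each library, while Foxj1 alone differed beyond 2-fold.

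Near 1 FPKM stood Foxq1, a gene of hair and stomach epithelium in mice, and Foxr1. Foxq1 stood at 1.07 FPKM in humanCD3eTg and 0.729 FPKM in B6J, 1.46-fold higher. Its counting interval runs from 1.03-fold to 2.04-fold higher, and its value may hold reads of both genes of that overlap. Foxr1 stood at 0.883 FPKM in humanCD3eTg and 1.01 FPKM in B6J. Foxl2, the ovarian forkhead gene, stood at 0.272 FPKM in humanCD3eTg and 0.367 FPKM in B6J. Its opposite-strand transcript Foxl2os stood at 0.286 FPKM in humanCD3eTg and 0.455 FPKM in B6J, and the transcripts share no stretch of 50 bases.

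Of the remaining members, 12 had a mean below 0.1 FPKM. Foxi1, of ionocytes in inner ear, kidney and airway, was listed at 0 in humanCD3eTg and at 0.163 FPKM in B6J, about 7 fragments, where 3 fragments in humanCD3eTg would give 0.088 FPKM. Foxb2 and Foxe1, of which Foxe1 is a thyroid factor gene, were listed at 0 in humanCD3eTg; in B6J Foxb2 stood at 0.152 FPKM and Foxe1 at 0.110 FPKM. Foxn4, of retina and spinal cord, was listed at 0.137 FPKM in humanCD3eTg and at 0 in B6J. Foxi2 and Foxb1 stayed below 0.03 FPKM in both. Foxe3, Foxh1 and Foxr2, together with Foxf2 and Foxd1, were listed at 0 in both libraries, which is 11.9% of the members against 22.4% of all genes. Of 19 members below a mean of 1 FPKM and above 0 in B6J, 7 were listed at 0 in humanCD3eTg, against 32.1% of all such genes. In the other direction it was 1 of 13, against 13.1%. Both counts are near the background, and a value of 0 in these tables can be a failed estimate. Of the 3 measured ionocyte genes 2 were higher and 1 lower. Kit, which pigment cells also use, stood at 13.3 FPKM in humanCD3eTg and 4.01 FPKM in B6J (1.52) beside the higher pigment markers given above, whose part was not tested. Car2, a carbonic anhydrase gene, stood at 3.66 FPKM in humanCD3eTg and 3.87 FPKM in B6J (-0.06).

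Counting intervals describe the fragments of these libraries and not the spread between samples. For 24 members with 1 annotated coding transcript the fragments could be estimated, and 14 of them had at least 1 estimated fragment in both libraries. Intervals were computed for forkhead genes only, so the counts that follow have no share of all genes beside them and cannot be set against a background. They also take the scaling of FPKM as given, which matters for small ratios. The log2 ratio of Foxo1 ran from -0.20 to -0.09 under the alternatives, and that of Foxk2 from -0.23 to -0.11. The counting interval of the ratio lay wholly below 1 for 6 genes, Foxj1, Foxl1, Foxs1, Foxc1, Foxk2 and Foxo1, and wholly above 1 for 3, Foxa1, Foxo6 and Foxq1. Of these Foxl1 rested on the fewest fragments, and Foxq1 overlaps the gene model named above. The estimate of Foxl1 in humanCD3eTg lay 0.49 from a whole number before rounding to 5, so its interval is uncertain. Among 12 member values of 1 to 15 fragments, 6 lay within 0.1 of a whole fragment. For Foxc2, Foxl2, Foxd2, Foxd4 and Foxa3 it included 1, so no difference was detectable at this depth. In FPKM itself, without an added 1, 2 of the 17 genes were beyond 2-fold on the lower side, Foxj1 and Foxs1, against 6.46% of all genes. Foxa1 was the 1 gene at least 2-fold higher, against 3.4%. At 1.5-fold on FPKM + 1 there were 3 lower, with Foxc1 added, against 10.9%, and 1 higher, against 5.95%.

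**Figure D3:**
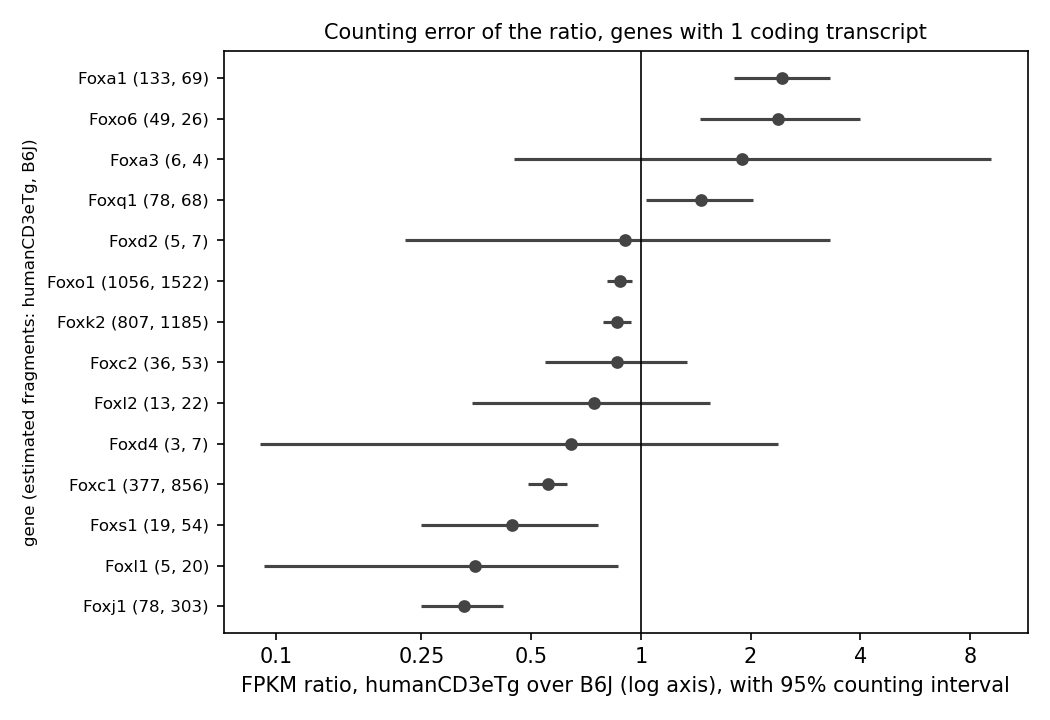
Ratio of FPKM, humanCD3eTg over B6J, on a log axis for the 14 forkhead genes with 1 coding transcript and at least 1 estimated fragment in both libraries, with 95% counting intervals. Numbers beside each gene are estimated fragments in humanCD3eTg and in B6J, and the intervals of Foxj1 and Foxa1 lie clear of 1 on opposite sides.

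**Figure D4:**
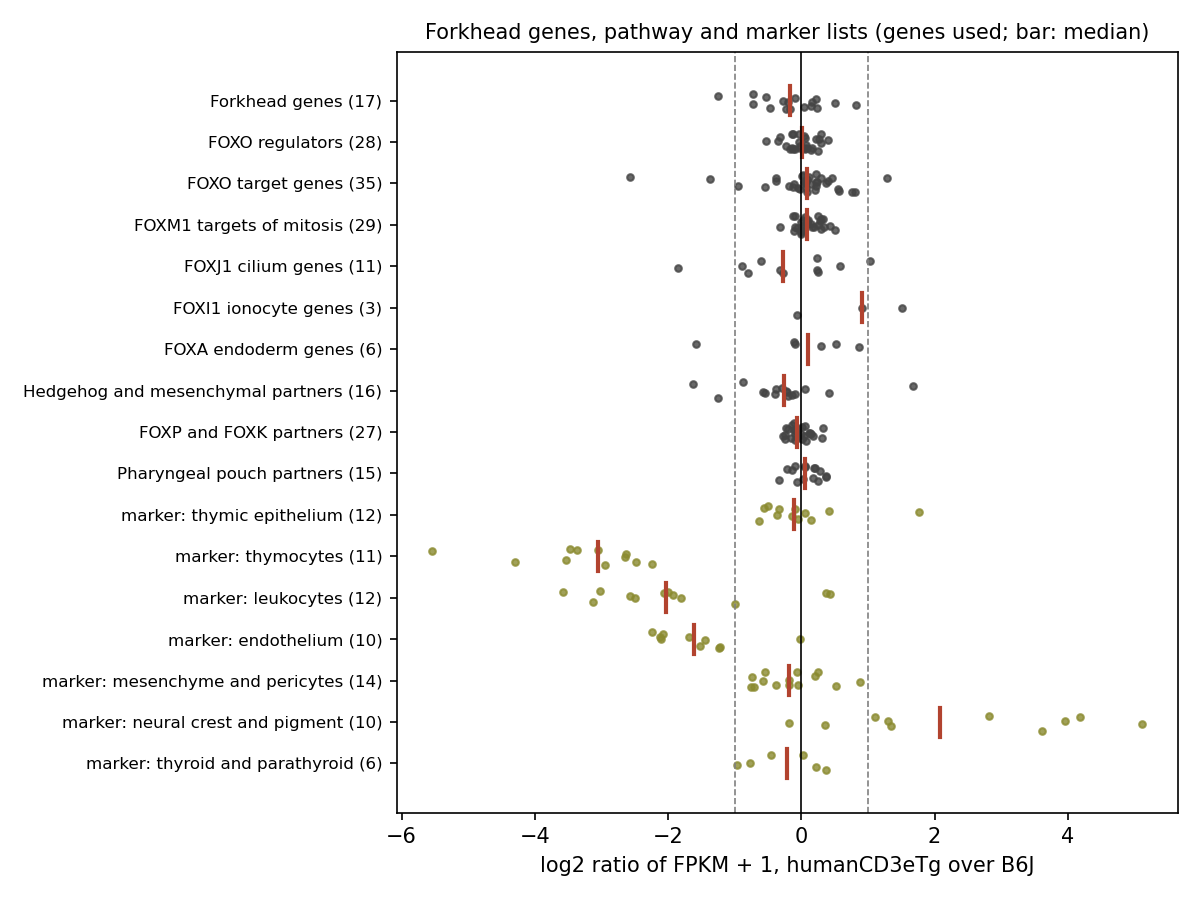
Log2 ratio of FPKM + 1, humanCD3eTg over B6J, for each measured gene of the forkhead family, its pathway lists and the marker lists, with a bar at each median and the number of genes used beside each name. The forkhead median of -0.17 and the pathway medians, other than that of the 3 ionocyte genes, lie between -0.28 and 0.09, whereas the medians of thymocyte, leukocyte and endothelial markers lie below -1 and that of neural crest and pigment markers above 1.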

How the data were processed

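Per the labels' protocols, TRIzol RNA of sorted fetal thymic epithelial cells went into Illumina TruSeq libraries. The deposited tables hold the authors' FPKM, 1 value per gene symbol and library. The submitters' processing notes name the build mm9, Cufflinks 2.1.1, TopHat2 2.0.8 and Bowtie2 2.1.0, with no roles. Annotation and strand use were not given in the sources used here.

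Ratios are log2 of FPKM + 1, humanCD3eTg over B6J, for every gene averaging 1 FPKM or more, computed in Python 3.11.15 with pandas 2.3.3. An FPKM of at most 0.001 was called listed at 0. Members and all 16 gene lists (330 symbols, 319 found) were chosen with earlier results of these data known. Of the members, 1 is counted in all totals but not reported by name here, and some sequences and list genes are not reported either. From each list up to 4 genes with the largest ratios were eligible for naming, beside 7 markers of the sorted cells, and markers named for being listed at 0 were chosen after their values were seen.

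Depth is not in the files. FPKM values of low genes with 1 GENCODE M21 transcript, times length less 210 bases, fell on steps of 0.063 FPKM kb in humanCD3eTg (585 values, 52.3% within 0.1 of a whole fragment) and 0.0499 in B6J (822 values, 50.6%). This is about 15900000 fragments in humanCD3eTg and 20000000 in B6J. The ratio of steps was 1.26, and so was the most frequent ratio among 1921 low genes. GENCODE M21 is of a later build than mm9, so fragment numbers are approximate. Intervals are exact, Poisson for levels and conditional binomial for ratios, and cover counting error only. The code was tested on simulated data. The alternatives were other pseudocounts, filters, scalings and fold limits, and a ratio with no pseudocount added after seeing the data.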

Additional observations from a re-analysis of the deposited data

How the results depend on the processing

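The count of forkhead genes at least 2-fold lower in humanCD3eTg was 1 (Foxj1) and that at least 2-fold higher 0. With a pseudocount of 0.1, or with none (chosen after seeing the data), 2 were lower (Foxj1 and Foxs1) and 1 higher (Foxa1). At 1.5-fold 3 were lower and 1 higher. With a pseudocount of 5, a mean of at least 5 FPKM, or a limit of 4-fold, 0 were lower and 0 higher. A mean of at least 5 FPKM leaves 14 members and removes Foxj1 itself. Quantile normalization, centring on the median, no filter, leaving out genes listed at 0 in 1 library, and scaling to totals that omit ribosomal protein, mitochondrial and haemoglobin genes each gave 1 lower and 0 higher. The median log2 ratio was -0.17, and -0.056 with no filter over all 42 members, 5 of which are listed at 0 in both libraries. It stayed within 0.1 of -0.17 under the other alternatives. Pseudocounts, filters and fold limits cannot change a sign. Under centring, quantile normalization and rescaling, which can, all 17 genes of at least 1 FPKM kept theirs. No paired analysis was possible because each group has 1 library. Depth limits most members below 0.5 FPKM, which rest on about 22 fragments or fewer where these could be estimated.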
